A study of Gallus gallus with 12 samples.

Results

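The inner longitudinal muscle of the chick hindgut was compared with the subepithelial mesenchyme of the same samples, the connective tissue directly under the gut epithelium. The table gives both regions of each of the 4 hindgut samples, so 4 of the 12 samples of the series and 8 of its 36 columns of counts made up the comparison, paired by replicate number. The samples were taken from chick (Gallus gallus) embryos at embryonic day 14, incubated at 38 °C. Light-seq was used, a spatial method in which RNA is reverse transcribed on the section, hand-drawn regions are tagged with a barcode under patterned light, and the tagged cDNA is collected and sequenced. Each sample was 1 library that held 3 regions, of which the third was the circumferential muscle on its inner side.

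The 12 samples formed 3 groups of 4. The hindgut samples and the midgut controls carried the RCAS-mGFP retrovirus, which expresses a fluorescent protein, and the Hoxd13 midgut samples carried RCAS-Hoxd13, which expresses a posterior Hox transcription factor. Per the labels, the constructs were electroporated at stage HH17 into the splanchnic lateral plate mesoderm at midgut level, and they do not say how far the hindgut tissue itself carried virus. The series text names only the mesenchyme for its own comparisons between tissues. The labels do not say whether replicates are separate embryos. The p-values weigh a difference between regions against the spread left after sample and region effects, pooled over the 3 groups and all regions. It holds both variation of region differences from sample to sample and counting noise. That spread may be technical.

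Gut smooth muscle arises from the splanchnic mesoderm in layers. The circumferential layer forms first, longitudinal layers follow, and the mesenchyme between muscle and epithelium stays largely fibroblastic. Contractile smooth muscle cells are recognised by smooth muscle actins (ACTA2, ACTG2), myosin heavy chain MYH11, the actin-binding proteins TAGLN and CNN1 and the intermediate filament protein DES. Hedgehog and BMP signals, the first from the epithelium, pattern where muscle forms, and muscle contraction and stiffness bear on how the lumen folds.

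The longitudinal muscle columns were thin. Their totals were 49535, 13051, 11233 and 23425 counts in replicates 1 to 4, against 903222, 210803, 261543 and 454072 in the mesenchyme, 16.2 to 23.3 times more. Between 2530 and 7134 genes had a count in a longitudinal muscle column, and 3 counts, the most that a 0 leaves possible, made 60.6 to 267 CPM there (counts scaled to a common column total of 1000000) against 3.32 to 14.2 CPM in the mesenchyme. After edgeR's low-count filter 614 of 17138 genes were tested, those near or above 224 CPM in enough columns. At least 4 of the 36 columns had to reach that level, and any region or tissue could supply them. A gene low in most columns could thus be tested through 1 region alone. Calls of such genes as higher in that region are not independent of the filter. CPM are shares of a column, so fewer cells of a type and less RNA per cell cannot be told apart.

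Replicate 1 stood apart from the other hindgut samples. HOXA13, a marker of the hindgut end of the body axis, was at 14.4 CPM in its mesenchyme and at 104, 57.4 and 70.5 CPM in replicates 2 to 4. HOXB13 was at 11.1 CPM against 99.6, 53.5 and 74.9 CPM, and both genes had 0 counts in the mesenchyme of all 4 midgut samples. The summed level of 13 posterior HOX genes was 64.2 CPM in replicate 1 and 229 to 318 CPM in the others. The summed epithelial genes went the other way, at 5158 CPM in its mesenchyme against 1506 to 1989 CPM. Some genes in its mesenchyme were near their midgut mesenchyme level. APOA1 was at 297 CPM, against 3.82 to 6.61 CPM in replicates 2 to 4 and 261 ± 46.6 CPM in midgut. HOXB3 was at 73.1 CPM, against 4.74 to 30.8 CPM and 73.8 ± 24.0 CPM. These genes were chosen after their values were seen, and HOXA13 and HOXB13 were above their midgut level of 0. Why replicate 1 differed was not tested. Values without replicate 1 are therefore given beside most of the named calls and the list medians that it moved, but not beside the comparison of signs across tissues.

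In the longitudinal muscle, 40 of 614 genes differed from the mesenchyme of the same samples (6.51%) at a Benjamini-Hochberg adjusted p under 0.05 in the quasi-likelihood test of edgeR. Of these, 16 were higher (2.61%) and 24 lower (3.91%). The median log2 difference over all tested genes was −0.02, and 108 genes had an unadjusted p under 0.05. The higher genes included the smooth muscle actin ACTA2, the matrix proteoglycan ASPN and the gut mesenchyme transcription factor HLX. The lower genes included the epithelial cadherin CDH1, the ribosomal protein RPL5 and the second smooth muscle actin, ACTG2. Of the 40 genes, 4 of the higher and 9 of the lower ones had only an Ensembl identifier. Without replicate 1, 25 of 549 genes passed (4.55%), 10 of them higher (1.82%) and 15 lower (2.73%), and these included 9 of the 16 and 13 of the 24. The longitudinal muscle values lay above all mesenchyme values for 21 of the 614 genes (3.42%) and below them all for 8 (1.3%).

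**Figure D1:**
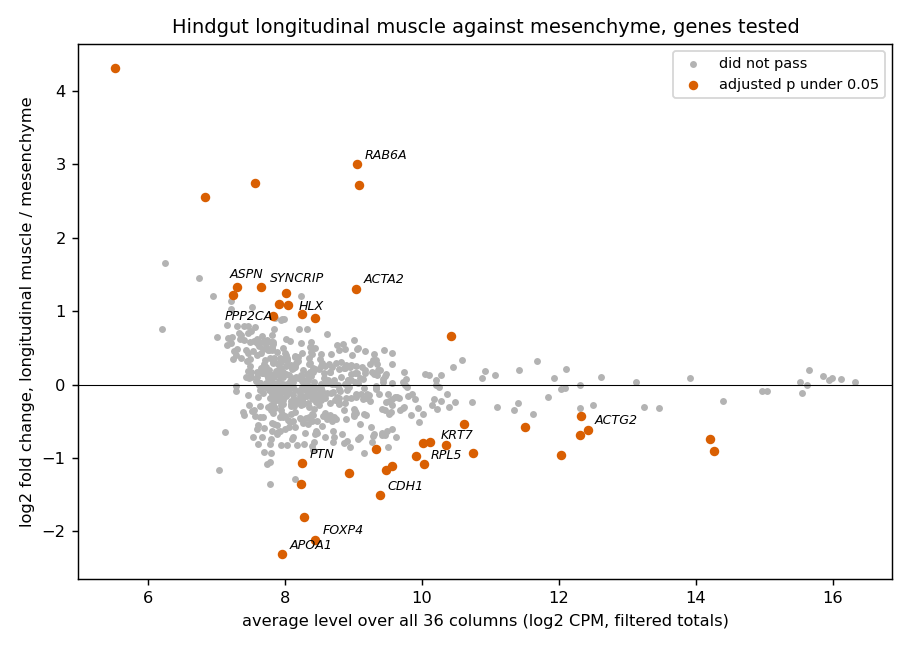
Log2 fold change of hindgut longitudinal muscle over mesenchyme (vertical axis) against the average log2 CPM over all 36 columns (horizontal axis), 1 point per tested gene. Orange points passed the threshold, 16 above and 24 below the line at 0. ACTA2 lies at 1.31 and CDH1 at −1.51.

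ACTA2, the actin of vascular and early visceral smooth muscle, was the only contractile gene that was higher. Its level was 290, 351, 260 and 436 CPM in the mesenchyme of replicates 1 to 4 and 828, 919, 534 and 1067 CPM in the longitudinal muscle, from 41, 12, 6 and 25 counts. The groups did not overlap, and the longitudinal muscle was the higher region in all 4 samples. The means were 334 ± 77.7 and 837 ± 225 CPM (SD, n = 4), a log2 difference of 1.31 ± 0.22 (SE), with an edgeR adjusted p of 7.9e-06. Without replicate 1 it was 1.22 (edgeR adjusted p = 0.0026), and it passed with any other single sample left out. ACTA2 shares most of its coding sequence with ACTA1 and ACTG2, so the assignment of reads between these genes is uncertain.

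ACTG2, the actin of mature gut smooth muscle, was lower. Its mesenchyme levels were 3119, 4630, 4753 and 6169 CPM and its longitudinal muscle levels 4461, 1992, 3027 and 2519 CPM. Replicate 1 alone had more ACTG2 in the longitudinal muscle, and the groups overlapped. The log2 difference was −0.62 ± 0.17 with an edgeR adjusted p of 0.012, and it was −1.12 without replicate 1 (edgeR adjusted p = 3.1e-07). The call was lost without replicate 2 (−0.47, edgeR adjusted p = 0.15) and without replicate 4 (−0.40, edgeR adjusted p = 0.17). With no block for the sample it was −0.73 (edgeR adjusted p = 0.13).

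The other contractile genes did not stand above the mesenchyme. The deposited table held 31 contractile genes and 21 of them were tested, of which 1 was higher (ACTA2) and 1 lower (ACTG2), with a median log2 difference of −0.09 against −0.02 over all tested genes, and of −0.40 without replicate 1. MYH11, the smooth muscle myosin heavy chain, was at 939 ± 268 CPM in the mesenchyme and 909 ± 251 CPM in the longitudinal muscle (log2 −0.04 ± 0.21, edgeR adjusted p = 0.96; −0.32 without replicate 1). TAGLN was at 1041 ± 378 and 853 ± 141 CPM (−0.19 ± 0.20, edgeR adjusted p = 0.70), DES at 755 ± 221 and 552 ± 98.1 CPM (−0.35 ± 0.24, edgeR adjusted p = 0.48). Without replicate 1 these were −0.50 and −0.58, and neither passed. MYOCD, the transcriptional coactivator that drives the smooth muscle programme, was at 75.3, 80.6, 111 and 159 CPM in the mesenchyme and 242, 460, 0 and 256 CPM in the longitudinal muscle. It was above its mesenchyme in 3 of 4 samples and at 0 counts in replicate 3, and it did not pass (1.21 ± 0.44, edgeR adjusted p = 0.088). It passed without replicate 3 (1.44, edgeR adjusted p = 0.043) and did not without replicate 1 (0.97, edgeR adjusted p = 0.47). In hindgut only longitudinal muscle columns of MYOCD reached the filter level of 224 CPM. Its difference and p-values are thus not independent of the filter. Summed over the list, the contractile genes made 10444, 13055, 13470 and 18554 CPM of the mesenchyme and 14899, 9041, 10772 and 12508 CPM of the longitudinal muscle, higher in the longitudinal muscle of replicate 1 only. Of the defining markers of smooth muscle, only ACTA2 thus set the region labelled longitudinal muscle above the region labelled mesenchyme.

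**Figure D2:**
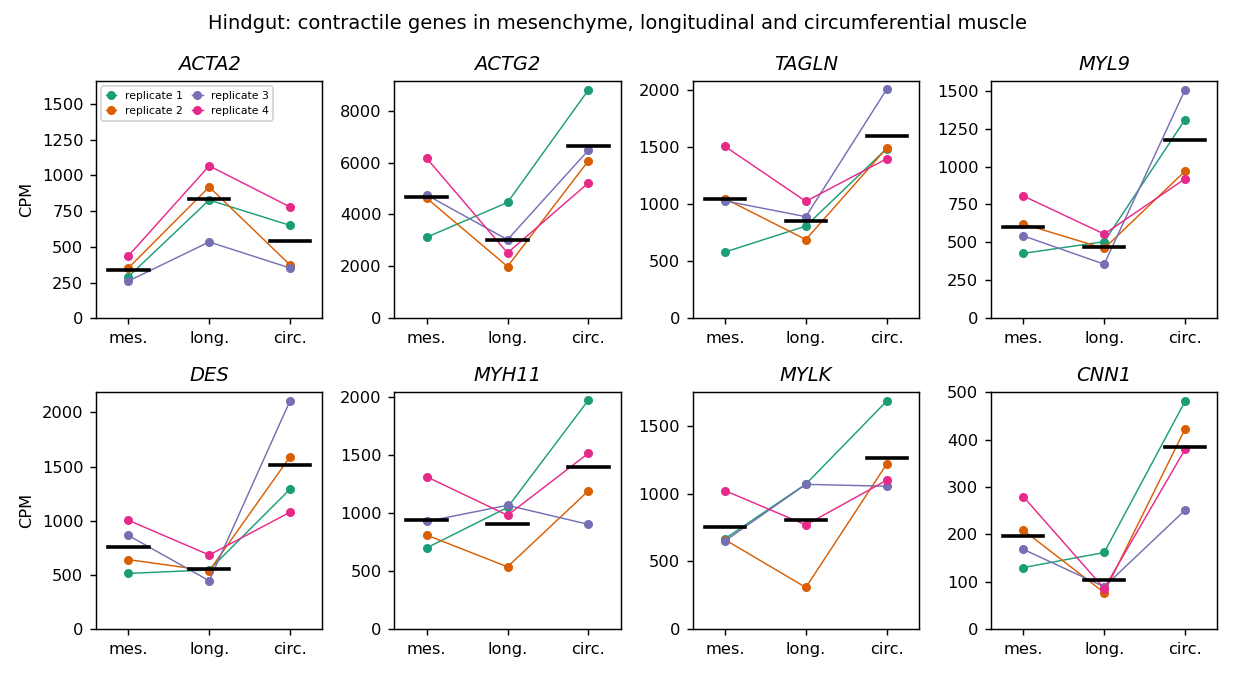
CPM of 8 contractile genes in the mesenchyme (mes.), longitudinal muscle (long.) and circumferential muscle (circ.) of the 4 hindgut samples, with 1 coloured line per sample and black bars at the means. ACTA2 is highest in longitudinal muscle on average (837 CPM), while ACTG2, TAGLN, MYL9, DES, CNN1 and, by a small margin, MYH11 have their lowest mean there.

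Against the circumferential muscle of the same samples, 9 of 21 tested contractile genes were lower in the longitudinal muscle. Of the 614 genes 2 were higher (0.326%) and 16 lower (2.61%), and the median log2 difference of the contractile genes was −0.79 against −0.02 over all tested genes. DES was at 545, 536, 445 and 683 CPM in the longitudinal and 1292, 1592, 2108 and 1079 CPM in the circumferential muscle, with no overlap (−1.44 ± 0.24, edgeR adjusted p = 1.4e-05). ACTG2 differed by −1.21 ± 0.17 (edgeR adjusted p = 4.3e-07), the myosin light chain MYL9 by −1.36 ± 0.26 (edgeR adjusted p = 0.00018) and the calponin CNN1 by −1.87 ± 0.43 (edgeR adjusted p = 0.0029). TAGLN, MYH11, MYLK, TPM1 and TPM2 were lower as well. Without replicate 1, MYH11 (−0.75, edgeR adjusted p = 0.10) and MYLK (−0.89, edgeR adjusted p = 0.073) lost the call. DES, ACTG2, MYL9 and CNN1 kept it (−1.57, −1.44, −1.35 and −2.31), as did TAGLN, TPM1 and TPM2. The count of lower contractile genes was 7 of 20 without replicate 1, 5 of 21 without replicate 2 and 4 of 21 with no block for the sample.

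ACTA2 was not among the genes lower than in circumferential muscle, where it averaged 538 ± 210 CPM. In the comparison of circumferential muscle with mesenchyme, which shares the mesenchyme columns, 119 genes passed (19.4%), 65 higher (10.6%) and 54 lower (8.79%), and 12 of the 21 contractile genes were higher, with a median of 0.66. The circumferential columns held 19920 to 112252 counts.

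Among matrix genes, ASPN, a small leucine-rich proteoglycan that binds collagen, was higher. It was at 105, 204, 126 and 181 CPM in the mesenchyme and at 283, 383, 178 and 640 CPM in the longitudinal muscle. The longitudinal muscle was higher in every sample, and replicate 3 fell within the mesenchyme range. The log2 difference was 1.33 ± 0.35 (edgeR adjusted p = 0.0099), and the call was lost without replicate 1 (1.31, edgeR adjusted p = 0.078) and without replicate 4 (0.96, edgeR adjusted p = 0.24). ASPN was also 1 of the 2 genes above circumferential muscle (1.41 ± 0.42, edgeR adjusted p = 0.047). That call was lost in 10 of 12 fits that left out 1 sample, with edgeR adjusted p up to 0.49. In hindgut all mesenchyme and circumferential muscle values of ASPN lay under the filter level of 224 CPM. There only longitudinal muscle columns reached it, so neither call is independent of the filter.

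Of 17 tested matrix glycoproteins and proteoglycans 16 had a positive difference, with a median of 0.42, and ASPN alone passed. Over all tested genes the median was −0.02, 317 of 614 were negative and 2.61% were higher. The 17 had passed the filter, and ASPN reached its level in hindgut only in longitudinal muscle columns. For such genes a positive sign is partly set by the filter, so the shares over all tested genes are not a like background. The summed level of the matrix list, untested members included, was 6316 ± 835 CPM in the mesenchyme and 8480 ± 733 CPM in the longitudinal muscle, higher in 4 of 4 samples. FBN2, a microfibril protein of embryonic tissue, was at 220, 237, 279 and 359 CPM and at 424, 613, 534 and 384 CPM, with no overlap, but did not pass (0.76 ± 0.26, edgeR adjusted p = 0.057). PRELP was at 0.50 (edgeR adjusted p = 0.20) and LTBP1, which tethers latent TGFB, at 0.45 (edgeR adjusted p = 0.29). Without replicate 1 the median was 0.48 and none of the 15 that could be tested passed.

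The 10 tested collagens did not pass in either direction (median −0.14). COL1A1, the main chain of type I collagen, was at 9591 ± 1112 CPM in the mesenchyme and 8172 ± 2049 CPM in the longitudinal muscle (−0.30 ± 0.12, edgeR adjusted p = 0.10). It was lower without replicate 1 (−0.48, edgeR adjusted p = 0.015). COL1A2 was at −0.17 (edgeR adjusted p = 0.58) and COL3A1 at 0.21 (edgeR adjusted p = 0.39). The 9 basement membrane genes (median −0.10), 10 fibroblast genes (median 0.12) and 14 non-muscle actomyosin genes (median −0.03) had no member that passed. Without replicate 1 these medians were −0.45, 0.22 and 0.16. VIM, the mesenchymal intermediate filament, was at 162 ± 15.3 CPM in the mesenchyme and 295 ± 158 CPM in the longitudinal muscle (0.89 ± 0.33, edgeR adjusted p = 0.089). It passed without replicate 4 (1.16, edgeR adjusted p = 0.034) and was at 0.30 without replicate 1 (edgeR adjusted p = 0.85). The mean mesenchyme level of VIM lay under the filter level of 224 CPM, so that call may not be independent of the filter. The non-muscle tropomyosin TPM3 passed without replicate 1 (0.91, edgeR adjusted p = 0.015, against 0.43 and 0.29 in all samples). PDGFRA, the usual receptor marker of gut mesenchyme, did not reach the count filter. It was at 103 ± 51.5 CPM in the mesenchyme and 150 ± 44.6 CPM in the longitudinal muscle, from 15 longitudinal muscle counts. The longitudinal muscle was higher in 3 of 4 samples.

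**Figure D3:**
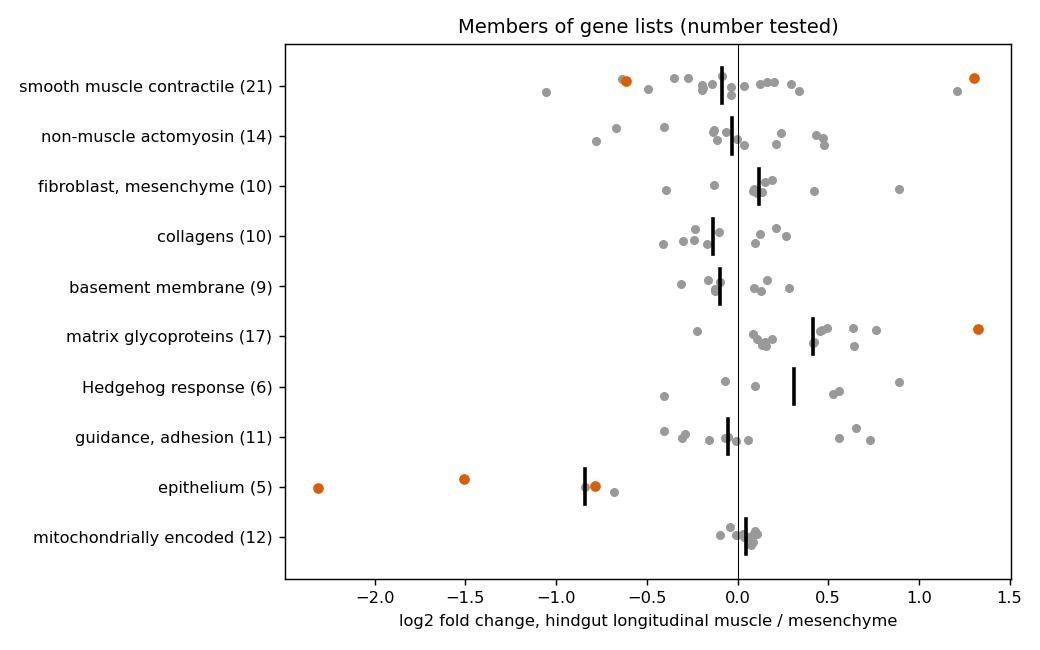
Log2 fold change of hindgut longitudinal muscle over mesenchyme for the tested members of 10 gene lists, 1 point per gene, with the number tested in parentheses, orange for genes that passed and a black bar at each median. The contractile list is centred near 0 (median −0.09), the matrix glycoproteins lie mostly to the right (0.42) and the 5 epithelial genes to the left (−0.84).

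Regulators and signalling genes were few among those tested. HLX, a homeobox factor needed in gut mesenchyme in mouse, was at 153, 256, 264 and 218 CPM in the mesenchyme and at 303, 383, 1068 and 427 CPM in the longitudinal muscle. The groups did not overlap, and replicate 3 was far above the other longitudinal muscle values. The log2 difference was 1.09 ± 0.30 (edgeR adjusted p = 0.012), 1.18 without replicate 1 (edgeR adjusted p = 0.039) and 0.82 without replicate 3 (edgeR adjusted p = 0.20). None of the 6 tested genes of the Hedgehog list passed (median 0.31, and 0.09 without replicate 1). In the BMP list 3 genes were tested, in the TGFB list 2, in the WNT list 1 and in the PDGF, FGF and NOTCH list 4, and none passed. TGFBI, a secreted TGFB target, was at −0.63 (edgeR adjusted p = 0.12). FOXP4, a forkhead factor, was lower (−2.11 ± 0.44, edgeR adjusted p = 0.00043), but in 3 of 4 samples, from 8 longitudinal muscle counts. Its call held without each hindgut replicate in turn.

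Among the HOX genes only HOXD13 was tested, and in hindgut it rested on 15 mesenchyme and 2 longitudinal muscle counts. The ratio of pooled longitudinal muscle to mesenchyme level was 2.51, with an exact 95% interval of 0.278 to 10.8 that covers counting error only. HOXA13 had 5 longitudinal muscle counts and 82 mesenchyme counts, a ratio of 1.15 (0.363 to 2.79). Both intervals include 1, so no difference between the regions was detectable for these genes at this depth.

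**Figure D4:**
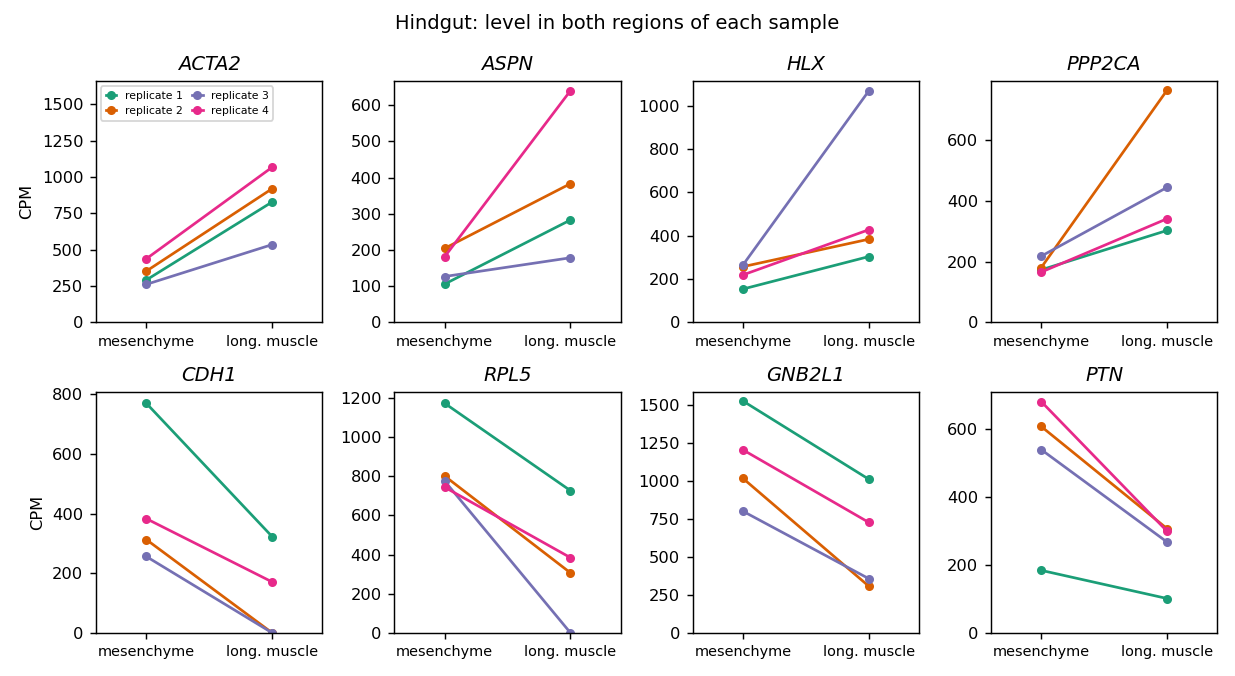
CPM of 8 genes in the mesenchyme and the longitudinal muscle (long. muscle) of each hindgut sample, with 1 coloured line per sample and no error bars. The lines rise in all 4 samples for ACTA2, ASPN, HLX and PPP2CA and fall in all 4 for CDH1, RPL5, GNB2L1 and PTN.

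Several other genes with a symbol were higher in 4 of 4 samples. PPP2CA, the catalytic subunit of protein phosphatase 2A, was at 173, 180, 218 and 165 CPM and at 303, 766, 445 and 342 CPM, without overlap (1.10 ± 0.31, edgeR adjusted p = 0.012). It was at 1.32 without replicate 1 (edgeR adjusted p = 0.026), and the call was lost without replicate 2 (0.86, edgeR adjusted p = 0.17) and without replicate 4 (1.06, edgeR adjusted p = 0.056). All mesenchyme values of PPP2CA lay under the filter level of 224 CPM and all its longitudinal muscle values above it. Neither its call nor its lack of overlap is thus independent of the filter. MTSS2, a membrane and actin-binding protein, rose from 1046 ± 321 to 1611 ± 184 CPM (0.66 ± 0.18, edgeR adjusted p = 0.011), without overlap. The m6A reader YTHDF2 was higher by 1.24 ± 0.34 (edgeR adjusted p = 0.012), and both it and MTSS2 lost the call without replicate 1 (0.87 and 0.38, edgeR adjusted p = 0.43 and 0.40). The tubulin TUBA1A was higher by 0.96 ± 0.29 (edgeR adjusted p = 0.025), a call lost without replicates 1, 2 or 4 (1.10, 0.94 and 0.76, edgeR adjusted p = 0.087, 0.089 and 0.22). The RNA-binding protein SYNCRIP was higher by 1.32 ± 0.40 (edgeR adjusted p = 0.027), a call lost without replicate 2 (0.86, edgeR adjusted p = 0.36) or 4 (1.30, edgeR adjusted p = 0.053) and kept without replicate 1 (1.80, edgeR adjusted p = 0.039). Its mesenchyme values, the highest at 157 CPM, lay under the filter level too, so this call may not be independent of the filter.

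RAB6A, a Golgi trafficking GTPase, differed by 3.00 ± 0.29 (edgeR adjusted p = 4.6e-14), and by 3.37 without replicate 1. It was outside the naming rule of the main comparison, which asks for all 4 pairs on 1 side, and was described after its values were seen. It was named among the 6 genes with a symbol and the smallest p against Hoxd13 midgut. Its level was 306, 19.0, 283 and 55.1 CPM in the mesenchyme and 2140, 153, 5608 and 0 CPM in the longitudinal muscle. It was high in replicates 1 and 3 in both regions and low in replicates 2 and 4, and the regions overlapped. In replicate 4 the longitudinal muscle value lay below the mesenchyme, though 3 counts made 128 CPM there. The gene with the largest difference, ENSGALG00000039249, had 16, 0, 7 and 3 mesenchyme counts and 12, 3, 6 and 7 longitudinal muscle counts, and 2 counts in all 4 circumferential columns together. Its log2 difference from mesenchyme was 4.30 ± 0.59 (edgeR adjusted p = 1.5e-08), and 4.90 without replicate 1, and no gene name was matched to it. In hindgut only its longitudinal muscle columns, at 242, 230, 534 and 299 CPM, reached the filter level of 224 CPM. There it was thus tested through the region where it was high, and its rank and p-value are not independent of that.

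Of the 24 lower genes 3 were on the epithelial list. CDH1, the cadherin of epithelial junctions, was at 771, 313, 256 and 383 CPM in the mesenchyme and at 323, 0, 0 and 171 CPM in the longitudinal muscle, from 16, 0, 0 and 4 counts. The longitudinal muscle value was lower in every sample, and replicate 1 was highest in both regions. In replicate 3, however, 3 counts made 267 CPM in the longitudinal muscle, above the mesenchyme level of 256 CPM. The 0 there does not set the regions apart. The log2 difference was −1.51 ± 0.34 (edgeR adjusted p = 0.0011) and −2.03 without replicate 1 (edgeR adjusted p = 0.025), and the call held with any other sample left out. KRT7, an epithelial keratin, was at 1437, 541, 409 and 617 CPM and at 707, 536, 267 and 427 CPM (−0.79 ± 0.25, edgeR adjusted p = 0.044), and did not pass without replicate 1 (−0.42, edgeR adjusted p = 0.65).

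APOA1, an apolipoprotein of the absorptive epithelium, had 268 of its 273 mesenchyme counts in replicate 1, and 3 longitudinal muscle counts, all in replicate 1. Its pooled ratio of longitudinal muscle to mesenchyme was 0.207, with an exact 95% interval of 0.0424 to 0.611 that covers counting error only. The call (edgeR adjusted p = 0.025) was lost without replicate 1, where no longitudinal muscle count remained (fitted log2 −2.67, edgeR adjusted p = 0.82). Of the 5 epithelial genes tested 3 were lower and all 5 had a negative difference, with a median of −0.84, beside 3.91% lower, 317 of 614 negative and a median of −0.02 over all tested genes. Without replicate 1, 1 was lower and the median was −1.82. In hindgut APOA1 reached the filter level of 224 CPM only in the mesenchyme of replicate 1. Its call and sign are thus not independent of the filter. Over the 21 epithelial genes in the table, the summed level was 5158, 1817, 1506 and 1989 CPM in the mesenchyme and 2685, 1073, 1246 and 896 CPM in the longitudinal muscle, lower in 4 of 4 samples. The lower genes PTPRF, a receptor tyrosine phosphatase (−1.11 ± 0.30, edgeR adjusted p = 0.011), and GUCA2B, the precursor of the gut peptide uroguanylin (−1.16 ± 0.31, edgeR adjusted p = 0.011), moved beside this epithelial sum. PTPRF was at −2.90 without replicate 1 and lost the call without replicate 4 (−0.91, edgeR adjusted p = 0.053). GUCA2B lost it without replicates 1 or 2 (−1.51 and −0.98, edgeR adjusted p = 0.18 and 0.060). The part of epithelial RNA in these differences was not tested.

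A few genes of the translation machinery were lower. RPL5, of the large ribosomal subunit, was at 1174, 802, 776 and 744 CPM in the mesenchyme and at 727, 306, 0 and 384 CPM in the longitudinal muscle, with no overlap (−1.08 ± 0.24, edgeR adjusted p = 0.0011). It was at −1.56 without replicate 1 (edgeR adjusted p = 0.0019), and the call held with any other sample left out. GNB2L1, the ribosome-associated scaffold also known as RACK1, was at 1135 ± 307 and 599 ± 331 CPM (−0.82 ± 0.20, edgeR adjusted p = 0.0034), lower in 4 of 4 samples. It passed in all 23 alternatives, and at −1.06 without replicate 1 (edgeR adjusted p = 0.010). Of 36 tested ribosomal protein genes, a list made after values were seen, 29 had a negative difference (median −0.36), 0 were higher and 3 lower, RPL5, RPL4 and RPSAP58. Over all tested genes 317 of 614 were negative, the median was −0.02 and 3.91% were lower. Without replicate 1 the median of the list was −0.32 and 2 were lower. Whether such genes share reads with similar copies was not checked, so their counts are uncertain. RPL4 (−0.53, edgeR adjusted p = 0.048) and RPSAP58 (−0.57, edgeR adjusted p = 0.011) did not pass without replicate 1 (−0.58 and −0.48, edgeR adjusted p = 0.20 and 0.17).

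PTN, a secreted growth factor of developing mesenchyme, was at 184, 607, 539 and 681 CPM in the mesenchyme and at 101, 306, 267 and 299 CPM in the longitudinal muscle. It was lower in every sample, and replicate 1 was lowest in both regions. These longitudinal muscle levels rested on few counts, as 3 counts made 60.6, 230, 267 and 128 CPM in those columns. The log2 difference of −1.07 ± 0.32 passed (edgeR adjusted p = 0.024), but not when any 1 of the 4 hindgut samples was left out (−1.05 to −1.12, edgeR adjusted p = 0.062 to 0.11). SCD, a fatty acid desaturase, was at −0.88 ± 0.27 (edgeR adjusted p = 0.025) and lost the call without replicates 1, 2 or 3 (−1.09, −0.82 and −0.86, edgeR adjusted p = 0.065, 0.11 and 0.060). GULP1, an engulfment adaptor, was at −1.35 ± 0.38 (edgeR adjusted p = 0.012) and lost it without replicates 1 or 3 (−1.13 and −1.18, edgeR adjusted p = 0.26 and 0.087). Y_RNA, a small non-coding RNA, was at −0.43 ± 0.12 (edgeR adjusted p = 0.012) and lost it without replicates 2 or 3 (−0.38 in both fits, edgeR adjusted p = 0.12 and 0.094).

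Markers of other cells in the outlined regions were compared as well. Blood genes summed to 619 ± 157 CPM in the mesenchyme and 1112 ± 202 CPM in the longitudinal muscle, higher in 4 of 4 samples. HBAD, an alpha-type globin, was higher (1.22 ± 0.34, edgeR adjusted p = 0.012), a call lost without replicate 1 (0.89, edgeR adjusted p = 0.39) or 4 (1.24, edgeR adjusted p = 0.058), and globin genes may share reads. In hindgut every mesenchyme value of HBAD lay under the filter level of 224 CPM and every longitudinal muscle value above it. Its call is thus not independent of the filter. Enteric neuron and glia genes summed to 1105 ± 233 and 1910 ± 348 CPM, again higher in 4 of 4 samples, though none of the 3 tested passed. Defining markers of that list had few counts in the shallow longitudinal muscle columns, 18 of ELAVL4, 6 of RET and 6 of SOX10. ELAVL4, which was not tested, was at 176 ± 20.2 CPM there and 72.3 ± 47.4 CPM in the mesenchyme, higher in 4 of 4 samples. RET and SOX10 are given as counts only. The endothelial markers PECAM1, CDH5 and KDR had 1, 9 and 4 counts in the longitudinal muscle, and CDH5 and KDR were each above the mesenchyme in 2 of 4 samples. The mesothelial list had 52 longitudinal muscle counts in all, 38 of them of PODXL, and the immune list 9, of which 8 were of CD74. The defining genes WT1, CSF1R, PTPRC and MSLN were at 0 there, but had only 27, 20, 5 and 2 counts in the far deeper mesenchyme columns. The part of these cells in the higher genes was not tested. The 12 mitochondrially encoded genes (median 0.05) and the 11 tested guidance and adhesion genes (median −0.05, and 0.12 without replicate 1) did not pass in either direction.

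Most of the differences had the same sign in the midgut. The midgut and Hoxd13 midgut samples are other libraries, in which 34 (5.54%) and 48 (7.82%) of the 614 genes passed. In midgut 18 were higher in the longitudinal muscle (2.93%) and 16 lower (2.61%), and in Hoxd13 midgut 27 were higher (4.4%) and 21 lower (3.42%). Of the 16 genes higher in hindgut, 16 were positive in midgut and 9 passed there, and 16 were positive in Hoxd13 midgut and 9 passed. Of the 24 lower genes, 23 were negative in midgut, with 12 passing, and 23 in Hoxd13 midgut, with 11 passing. Over all tested genes 49.7% were positive in midgut and 51.6% in Hoxd13 midgut. The filter used the columns of all 3 tissues, so a low gene could enter through longitudinal muscle columns of the midgut groups. For such genes a positive sign there is partly set by the filter, and the shares over all tested genes are not a like background. ACTA2 was higher by 1.43 in midgut (edgeR adjusted p = 0.00034) and by 1.38 in Hoxd13 midgut (edgeR adjusted p = 6.3e-06). CDH1 was lower in midgut (−1.12, edgeR adjusted p = 0.025) and at −0.31 in Hoxd13 midgut (edgeR adjusted p = 0.56).

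The region difference itself was distinct between hindgut and midgut for 1 of 614 genes (0.163%), ACTG2. In midgut its levels were 3222, 1871, 2365 and 3016 CPM in the mesenchyme and 4334, 3408, 3896 and 4129 CPM in the longitudinal muscle. There the longitudinal muscle was the higher region in every sample and the groups did not overlap (0.57, edgeR adjusted p = 0.038), while in hindgut it was the lower region in 3 of 4 samples. The difference of the differences was −1.19 ± 0.25 (edgeR adjusted p = 0.0039) and −1.63 without hindgut replicate 1 (edgeR adjusted p = 3.4e-08). The call was lost without hindgut replicate 2 (edgeR adjusted p = 0.061) or 4 (−0.88, edgeR adjusted p = 0.11) and with no block for the sample (−1.29, edgeR adjusted p = 0.35). ACTG2 in the mesenchyme averaged 4667 ± 1246 CPM in hindgut and 2619 ± 618 CPM in midgut, and in the longitudinal muscle 3000 ± 1062 and 3942 ± 398 CPM. MYH11 had the same sign (−0.85) without passing (edgeR adjusted p = 1.0), and 13 genes had an unadjusted p under 0.05. Without hindgut replicate 1, 39 of 549 genes had an unadjusted edgeR p under 0.05, and ACTG2 was again the 1 gene called.

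Against Hoxd13 midgut, 0 of 614 genes differed (0%) by edgeR, with 43 at an unadjusted p under 0.05, and DESeq2 also called 0, with 28. ACTG2 in Hoxd13 midgut was at 2352 ± 194 CPM in the mesenchyme and 2255 ± 443 CPM in the longitudinal muscle (0.04, edgeR adjusted p = 0.95). Without hindgut replicate 1, ACTG2 was the 1 gene called in that comparison (−1.15, edgeR adjusted p = 0.0012).

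**Figure D5:**
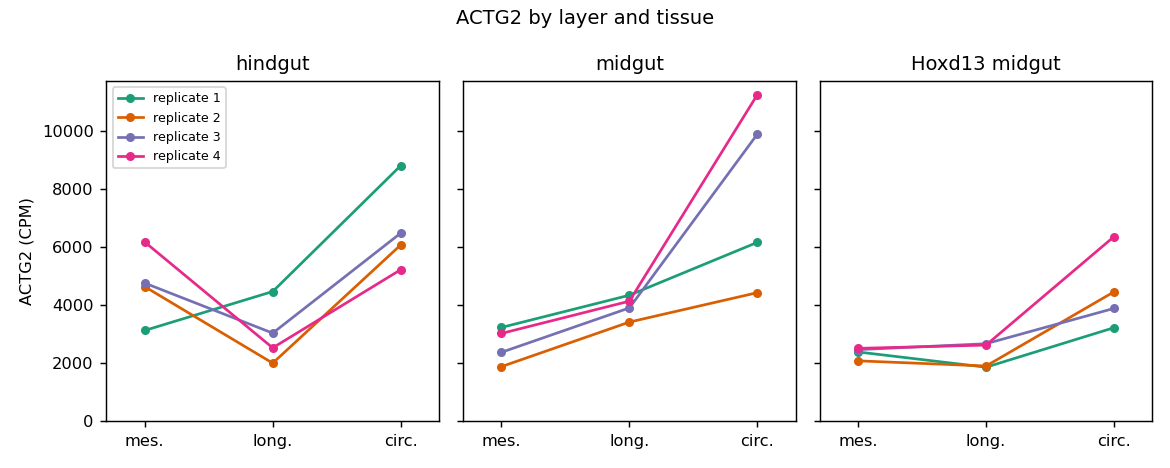
ACTG2 level (CPM) in the mesenchyme (mes.), longitudinal muscle (long.) and circumferential muscle (circ.) of the 4 samples of each tissue, with 1 coloured line per sample and no error bars. The longitudinal muscle lies below the mesenchyme in 3 of 4 hindgut samples and above it in all 4 midgut samples, and the circumferential muscle is the highest region in every midgut and Hoxd13 midgut sample.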

How the data were processed

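The deposited values are the authors' counts for each gene in each region of a sample, whole numbers that show no normalisation. Reads were assigned to regions by barcode, per the series text; GRCg6a, UMI-tools, STAR, featureCounts and DESeq2 are named per the submitters' processing notes, without settings. The labels do not say whether reads or unique molecules were counted, nor how strand and shared reads were treated, so intervals and floors cover counting error only. Of the 17138 genes, 5337 have only an Ensembl identifier.

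All 36 columns were fitted by the quasi-likelihood method of edgeR 4.0.16 in R 4.3.3 (TMM scaling, filterByExpr with a minimum count of 10 and minimum total of 15). The sample was a block, with region effects per tissue and 18 residual degrees of freedom. Tests were two-sided, p-values were adjusted after Benjamini and Hochberg across the 614 genes, and 0.05 was the threshold. SE is the absolute log2 difference over the square root of F. CPM use column totals. The pairing comes from the labels, which place both regions in 1 library: deviations from group means correlated at 0.20 to 0.53 within a sample and at −0.36 to 0.17 between samples. Deviations from the mean of 4 columns sum to 0, which lowers the values between samples by construction. The contrast is therefore not a test of the pairing. In hindgut mesenchyme and longitudinal muscle, a chi-square test of counts found every replicate pair to differ by more than independent counts would. Whether the counts are independent is not known, since reads rather than unique molecules may have been counted.

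Named genes were those with a symbol that passed with all 4 pairs on 1 side, at most 12 per direction by p (9 higher and 12 lower qualified), up to 3 per list, 6 per other comparison and a fixed set of contractile, matrix and HOX genes. The lists and the comparison were chosen with earlier results of these data known. Alternatives changed the scaling, filter, tool (DESeq2 1.42.0), block, depth or samples. The script was tested on simulated data. Sequences were not used here. Some genes of the lists are not reported here.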

Additional observations from a re-analysis of the deposited data

Results flagged for a closer look

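Of 114 groups of 4 values screened, 13 held a sample whose gap to its nearest neighbour exceeded Dixon's 95% critical value for 4 values, where chance gives about 1 group in 20. In the longitudinal muscle, HLX in replicate 3 stood high at 1068 CPM, HBAD in replicate 3 low at 267 CPM, GULP1 in replicate 2 high at 306 CPM and MYH11 in replicate 2 low at 536 CPM. The HBAD value rested on 3 counts and the MYH11 value on 7. In these columns 3 counts made 267 CPM (replicate 3) and 230 CPM (replicate 2). Neither the screen nor its chance rate allows for counting noise, so such values cannot be told apart from it. The summed basement membrane genes stood high there in replicate 1 at 8519 CPM, and the summed BMP genes in replicate 3 at 2048 CPM. In the mesenchyme of replicate 1, SYNCRIP at 157 CPM, RPL5 at 1174 CPM, APOA1 at 297 CPM, the summed epithelial genes at 5158 CPM and the summed enteric neuron and glia genes at 1454 CPM stood high. In the mesenchyme of replicate 4, the summed endothelial genes at 440 CPM and the summed immune genes at 128 CPM stood high.

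The region difference of ACTG2 was lower in hindgut than in midgut by −1.19 on the log2 scale, by edgeR's test of the difference itself.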

How the results depend on the processing

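The 16 higher and 24 lower genes of the main comparison were counted again under each alternative. The higher count was 6 with no low-count filter, 10 with a filter at 5 counts, 5 with no replicate block, 7 with the mesenchyme thinned to the depth of the longitudinal muscle, 7 with circumferential muscle left out and 7 in hindgut alone without replicate 1. Leaving out 1 sample gave 10 to 16, the lowest without hindgut replicate 1. The lower count was 131 with no filter, 40 with a filter at 5, 15 with DESeq2, 6 with no replicate block and 7 after thinning, and leaving out 1 sample gave 15 to 34. With no filter the median of the 614 genes moved by −0.77 on the log2 scale, so signs there are relative to that shift. Among the named genes, those that passed as reported or under this setting and changed sign were MTSS2 (−0.24), ACTB (−0.88), COL3A1 (−0.68), CYTB (−0.82) and ND5 (−0.85), and other named genes that passed in neither changed sign too. A filter at 5 moved the median by −0.15, leaving out circumferential muscle by −0.19, and hindgut alone without replicate 1 by −0.16. The 1 gene that differed between hindgut and midgut became 0 with no filter, with DESeq2, with no replicate block, after thinning and without hindgut replicates 2 or 4 (range 0 to 1). Against Hoxd13 midgut the range was 0 to 1. Against circumferential muscle, the higher count of 2 became 1 with mitochondrial genes left out, with no filter, with a filter at 5, with no replicate block and in hindgut alone, and 0 with DESeq2 and after thinning, with 1 to 4 when leaving out 1 sample. The lower count of 16 became 7 with total counts as scaling, 27 with no filter and 27 with a filter at 5, 10 with DESeq2, 6 with no replicate block and 8 in hindgut alone, with 9 to 19 when leaving out 1 sample. The fits tested different numbers of genes, 263 after thinning and 17138 with no filter; the cause of the other changes was not tested. ACTA2 passed in 22 of 23 alternatives, GNB2L1 in 23, RPL5 in 22 and CDH1 in 21. Depth in the longitudinal muscle limits all counts.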
